A study of Homo sapiens with 25 samples.

Results

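The comparison covers 6 expression arrays of 25 in the series, all from the line that the labels call MCF. The group sampled 24 h after addition of 10 µM erlotinib had 3 arrays, and the group sampled at 0 min of the same treatment had 3. The arrays were chosen by their labels alone. Cells were plated in serum-containing medium for a day before the drug was added, and the labels give no MCF culture of 24 h without erlotinib, so drug and time in culture cannot be told apart. The labels give no fuller name for the line, and they do not say whether replicates came from different cultures. A p-value here therefore reflects only the spread between these arrays. The other 19 arrays were hybridised with RNA of BT20 or MDA-MB-453, both breast cancer lines, and are labelled as Part 1, whereas the MCF arrays are Part 2.

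Erlotinib blocks the kinase of EGFR, a receptor that passes growth factor signals to the RAS, RAF, MEK and ERK kinase chain and to PI3K. Active ERK raises a set of short-lived transcripts that includes its own phosphatases (DUSP genes), other feedback inhibitors (Sprouty and SPRED genes) and ETS transcription factors of the ETV group. Luminal breast cells depend on the estrogen receptor, encoded by ESR1, more than on EGFR.

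Values are on the log2 scale after GCRMA normalization, and a gene is given by its probe set with the highest mean over the MCF arrays. A log2 value of 4 was the level for testing. The line carried luminal markers, since 20 of the 21 luminal markers on the array lay above that level on at least 3 arrays. ESR1 read 12.65, 12.69 and 12.65 at 24 h, against 12.57, 12.39 and 12.44 at 0 min, so it was high on every array. EGFR itself read 2.66, 1.87 and 3.12 at 24 h, against 4.17, 3.17 and 3.22 at 0 min, below the level on 5 of 6 arrays, and it was not tested. ERBB2, the partner receptor, read 7.01, 6.82 and 6.32 at 24 h, against 5.83, 7.10 and 6.14 at 0 min, and the groups overlapped. ERBB3 read 11.50, 11.30 and 11.31 at 24 h, against 11.25, 11.05 and 11.18 at 0 min, with a difference of 0.21 ± 0.16 that was not called. Of the 8 basal markers, ID4 and CDH3 alone passed the level on 3 arrays, and KRT5, KRT14, SOX10, MIA and VGLL1 lay below it on all. None of 7 blood and endothelial markers passed. Of 14 fibroblast markers, COL1A1, COL3A1, COL6A3 and TWIST1 passed, while VIM, DCN and LUM lay below the level on all arrays. The log2 of the summed fibroblast marker level was 9.36 to 9.81 at 24 h and 8.69 to 9.62 at 0 min.

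The arrays differed along an axis that was not time. The first principal component of the 11060 tested genes held 70.5% of their variance. Scores on it were 12.5, 52.0 and -48.6 at 24 h for replicates 1, 2 and 3, against -55.0, 44.4 and -5.2 at 0 min, so both groups spanned it from end to end. The second component, with 13.5% of the variance, separated the groups, with scores of 10.9 to 25.1 at 24 h and -22.7 to -10.1 at 0 min. Arrays of the same group correlated at 0.9302 to 0.9834 across probe sets and arrays of different groups at 0.9222 to 0.9891, ranges that overlapped. The 75th percentile of all values was 7.27 to 7.32 on the 6 arrays, and 43.1 to 43.5% of probe sets lay above the level. The source of the axis was not tested.

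**Figure D1:**
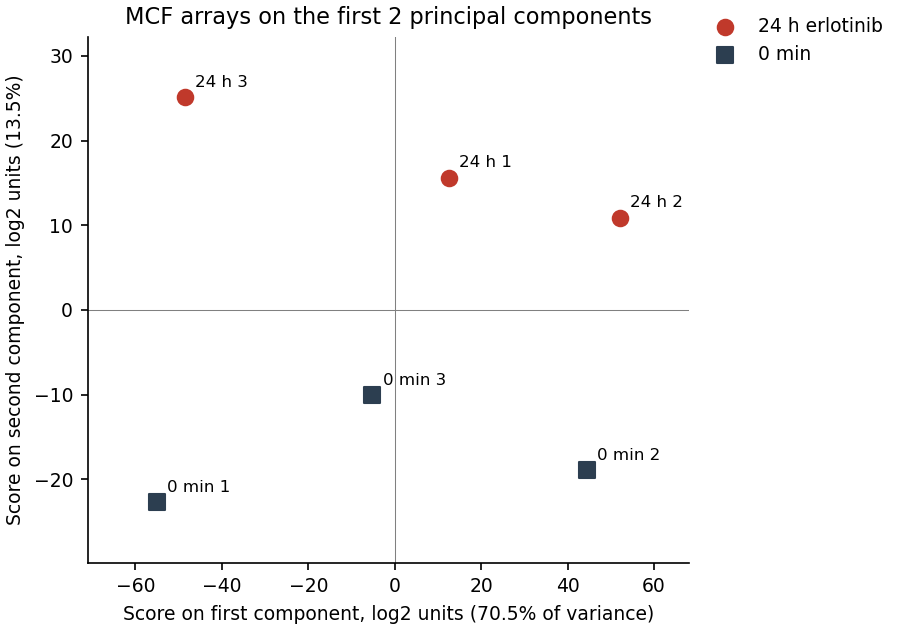
Each point is 1 MCF array, placed by its score on the first principal component (x axis, 70.5% of variance) and the second (y axis, 13.5%), in log2 units summed over genes. Circles are 24 h arrays and squares 0 min arrays. Both groups run from about the left end to the right end, and the y axis separates them.

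Genes at both ends of the axis moved by several log2 units between replicates of 1 group. H3C3, a histone H3 gene, had the largest positive loading and read 9.73, 11.13 and 6.59 at 24 h, against 4.74, 11.07 and 9.72 at 0 min. Further positive loadings among genes with a mean of at least 6 were those of CIMIP2A, ORMDL3, CLN6, SNORA21, UBE2S, AP5B1, SFSWAP, DOLPP1 and BSG. At the other end PIDD1, which encodes a death domain protein, read 5.69, 3.46 and 8.05 at 24 h, against 8.94, 4.02 and 6.92 at 0 min. SPTAN1, the gene for a spectrin chain, read 9.13, 7.25 and 11.92 at 24 h, against 12.02, 7.66 and 9.73 at 0 min. PAOX, RABEP2, PTPN23, DPP3-DT, TESK1, MAPK8IP3, RITA1 and ZNF467 had the other large negative loadings. These genes are named as a description of the axis, and none was called between 24 h and 0 min.

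In the limma fit to the 6 arrays alone, 1 gene fell at 24 h and none rose. The gene was ETV5, an ETS transcription factor induced by ERK. It read 7.32, 7.29 and 7.53 at 24 h, against 9.88, 10.13 and 9.95 at 0 min. The replicates of each group lay close together, and the difference was -2.61 ± 0.16 (SE, n = 3 and 3, Benjamini-Hochberg adjusted p = 0.0350). The single call was 0.00904% of the genes tested, and 643 genes (5.81%) had an unadjusted p under 0.05. The call was lost when any 1 of the 6 arrays was left out. All 24 h arrays lay above all 0 min arrays for 603 genes (5.45%) and below them for 691 (6.25%).

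A second fit took the axis score as a covariate, so that the groups are compared at equal positions on the axis. It is called axis-adjusted here. Because the axis was estimated from the same values, its p-values are descriptive. It called 199 genes (1.80%), 80 higher (0.723%) and 119 lower (1.08%) at 24 h, of which 38 and 75 changed at least 2-fold, and 2020 genes (18.3%) had an unadjusted p under 0.05. The median standard error was 0.145, against 0.259 without the covariate, while the median change over all genes was -0.00334, against -0.0103. Of the genes called lower, 104 of 119 had every 24 h array below every 0 min array, and of those called higher 55 of 80 had every 24 h array above. Over all genes these shares were 6.25% and 5.45%. Calls and separation come from the same 6 arrays, so these counts give the calls no further support.

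The number of axis-adjusted calls depended on single arrays. It was 1, 1 and 0 without 24 h replicate 1, 2 and 3, and 198, 0 and 4 without 0 min replicate 1, 2 and 3. All 199 differences kept their sign in each of these 6 fits. Those fits reuse most of the arrays that gave the calls, so kept signs give the calls no further support. With the second component, which itself separates the groups, as a further covariate no gene was called and 3 of the 199 changed sign. With probe sets and filter taken over 25 arrays 1 of them did. With quantile normalization repeated 95 were called, and among the losses were DUSP6 (adjusted p = 0.0530), CHAC1 (0.0544), PHGDH (0.0530), MCM10 (0.0541), BMF (0.0878) and BTC (0.0584). With the mean of each gene's probe sets 167 were called, and the losses included ASNS, CPS1 (0.95), PTPRE (-0.62), SELENOP (0.51), TRIB2 (-0.69), TSC22D3 and TNFAIP2 (-0.41). Under that choice others named here were still called with differences over 1.5 times smaller: ETV5 at -1.44, DIO2 at -1.04, CD109 at -1.11, CBS at 0.81, KLF2 at 0.70 and STAT6 at 0.73. That mean takes in every probe set of a gene, also those below the level. Of the probe sets that passed it, the 2 of ETV5 differed by -2.59 and -2.61 axis-adjusted, while the 3 of CD109 ran from -1.80 to -0.59. CYP1A1 was the gene still called without 24 h replicate 1 or 2, and CYP1A1, ETV5, SPRR1B and SLC1A3 were still called without 0 min replicate 3. Every axis-adjusted call named from here on was lost in 2 or more of these fits.

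CYP1A1 had the largest rise. It encodes a cytochrome P450 that oxidises aromatic compounds and is the standard target of the aryl hydrocarbon receptor. It read 8.58, 7.90 and 8.71 at 24 h, against 4.98, 4.12 and 4.63 at 0 min. The 24 h arrays all lay about as far above the 0 min arrays, wherever they stood on the axis. The difference was 3.82 ± 0.32 without the covariate (adjusted p = 0.0680, not called) and 3.91 ± 0.14 axis-adjusted (adjusted p = 0.00220), which is 15-fold. Of the 7 tested members of the aryl hydrocarbon receptor list, CYP1A1 was the 1 called, and 6 were higher in the 6-array fit. Over all genes 0.723% were called higher axis-adjusted, and 48.0% were higher in the 6-array fit. TIPARP, a receptor target that feeds back on it, differed by 0.56 ± 0.14 (axis-adjusted, adjusted p = 0.126), and CYP1A2 by 0.48 ± 0.17 (adjusted p = 0.224). CYP1B1, high at 12.78, 13.05 and 12.65 at 24 h and 12.73, 12.52 and 12.61 at 0 min, differed by 0.19 ± 0.15 (adjusted p = 0.550).

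**Figure D2:**
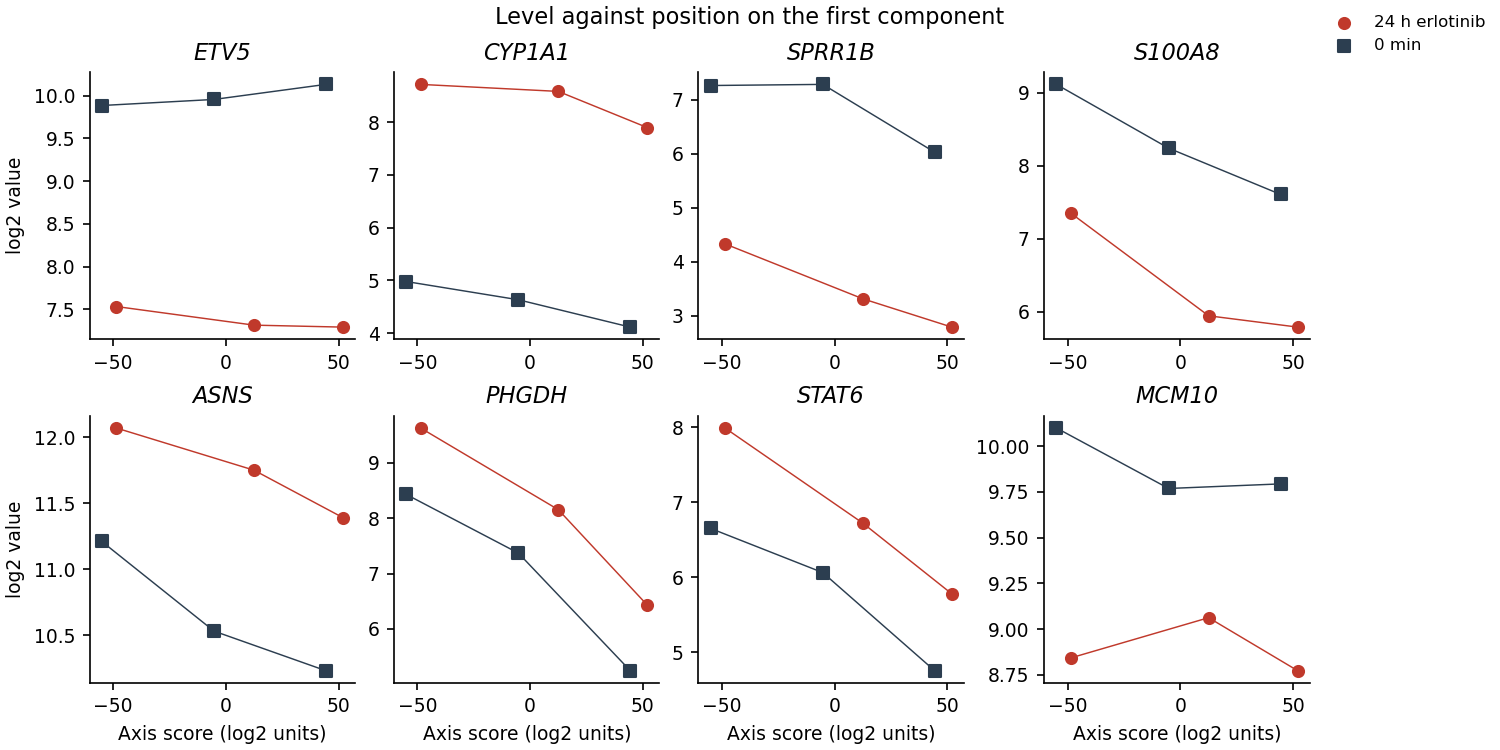
Each panel plots the log2 value of 1 gene (y axis) against the array's score on the first component (x axis, log2 units), with 24 h arrays as circles and 0 min arrays as squares, joined within a group. ETV5 and CYP1A1 stay apart by a near constant distance along the axis, whereas STAT6 and PHGDH slope with it and overlap between groups unless arrays of like position are compared.

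Transcripts that follow ERK output were mostly lower at 24 h. Like all gene lists here, the list of them was chosen with earlier results of these data known, so counts of its members are descriptive. Of 19 tested members of a list of 24, 15 were lower and 6 had every 24 h array below every 0 min array, with a median difference of -0.59 against -0.01 over all genes. Over all genes 52.0% were lower and 6.25% had every 24 h array below. The axis-adjusted fit called 5 of them lower and none higher (11 lower and 0 higher at an unadjusted p under 0.05), against 1.08% called lower and 18.3% under that p in either direction over all genes. The 5 were ETV5, DUSP6, SPRED1, LIF and MYEOV. All 5 are among the 6 that did not overlap, a count from the same arrays as the calls. Without the covariate ETV5 alone was called.

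Several of these genes encode negative regulators of the pathway. DUSP6, the phosphatase that removes phosphate from ERK, read 6.14, 6.43 and 6.23 at 24 h, against 8.28, 7.68 and 7.83 at 0 min. The groups were separated by more than 1 log2 unit, and the axis-adjusted fall was -1.65 ± 0.18 (adjusted p = 0.0246; 0.150 without the covariate). SPRED1, which inhibits RAF activation, read 7.20, 7.45 and 6.74 at 24 h, against 8.24, 8.72 and 8.61 at 0 min, and fell by 1.46 ± 0.11 axis-adjusted (adjusted p = 0.0132). Its paralog SPRED2 read 10.33, 10.59 and 9.97 at 24 h, against 11.00, 10.84 and 11.00 at 0 min, without overlap but also without a call. SPRY4 lay below the level on all arrays and was not tested; it read 2.02, 2.09 and 2.14 at 24 h, against 3.58, 3.65 and 3.93 at 0 min. DUSP5 differed by -1.10, DUSP4 by -0.44 and SPRY2 by -0.61 (axis-adjusted, not called), and SPRY1 by -0.04.

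Among the other targets, the cytokine gene LIF read 4.07, 3.72 and 4.23 at 24 h, against 6.16, 5.58 and 5.92 at 0 min, and fell by 1.82 ± 0.11 axis-adjusted (adjusted p = 0.00990). MYEOV, a gene that neighbours CCND1 in a region often amplified in tumours, read 3.25, 3.22 and 3.65 at 24 h, against 5.43, 4.68 and 4.84 at 0 min. Its fall was -1.55 ± 0.13 (adjusted p = 0.0147), with 24 h values below the level, so the size is inexact. Several abundant targets were not called; they and the DUSP, SPRY and SPRED members without a call were chosen after their values were seen, except CCND1 and EGR1. CCND1, which encodes cyclin D1, read 12.91, 12.92 and 12.64 at 24 h, against 12.57, 13.10 and 13.10 at 0 min. EGR1 read 11.59, 12.86 and 12.67 at 24 h, against 12.11, 12.59 and 12.22 at 0 min, and PHLDA1 and the receptor gene EPHA4, also chosen after their values were seen, differed by -0.19 and 0.10. Each of the 5 calls was lost without any 1 of 24 h replicates 1, 2 and 3 or without 0 min replicate 2, and all but that of ETV5 without 0 min replicate 3.

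**Figure D3:**
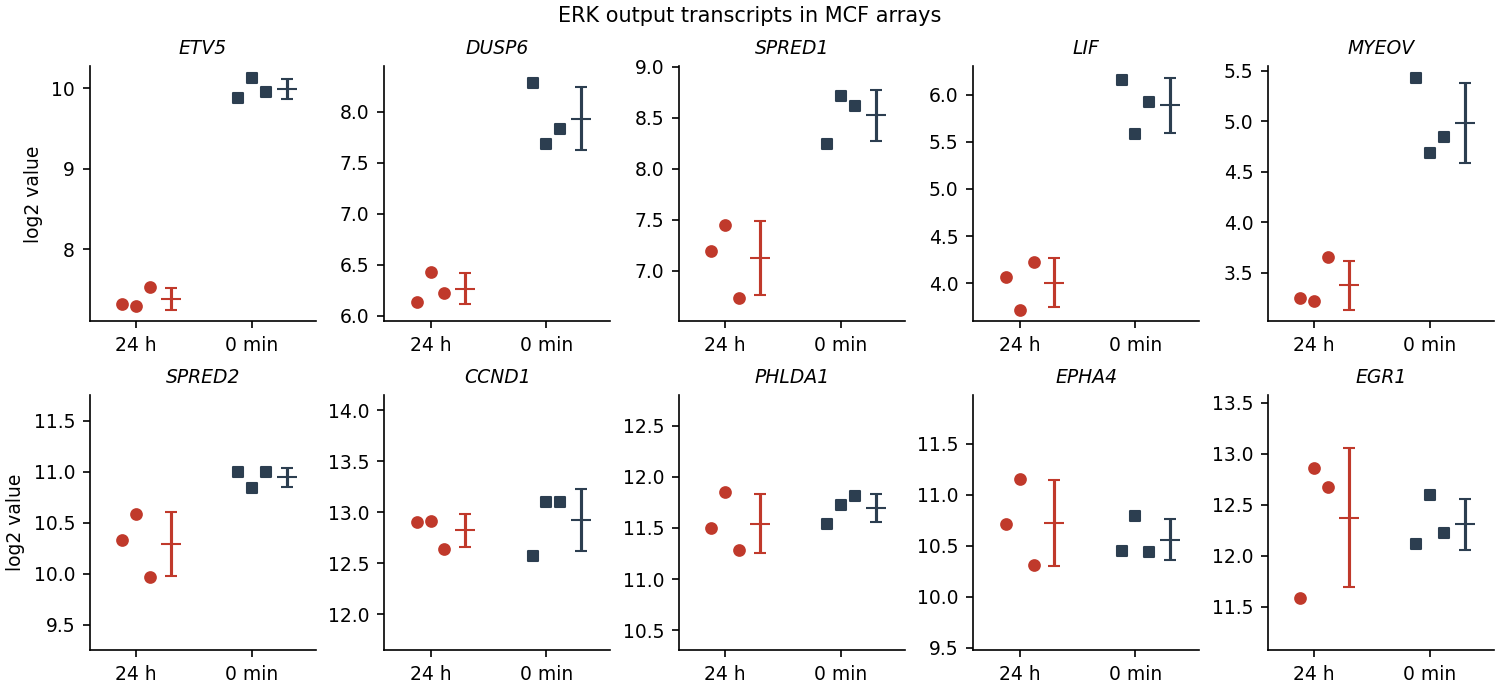
Log2 values (y axis) of 10 ERK output transcripts, with the 3 arrays of 24 h as circles on the left and the 3 of 0 min as squares on the right of each panel, and the mean and SD beside them. The first 5 panels are those called in the axis-adjusted fit; CCND1, PHLDA1, EPHA4 and EGR1 overlap between groups.

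The 24 h change of some ERK targets differed from that in the other lines. DUSP6 changed by -1.67 in MCF and by -6.03 in BT20, a line with high EGFR, and the difference of 4.37 ± 0.24 was called in a limma fit of both lines (adjusted p = 1.50e-06). The same gene changed by -0.08 in MDA-MB-453 (difference -1.59 ± 0.24, adjusted p = 0.0136). ETV5 went the other way against BT20, with a larger fall in MCF (-2.61) than in BT20 (-1.62). SPRED1 was called against neither line (adjusted p = 0.0513 for BT20 and 0.0512 for MDA-MB-453). Those fits called 1052 of 12113 genes (8.68%, 3.13% higher and 5.56% lower in MCF) against BT20 and 96 of 11820 (0.812%, 0.144% higher and 0.668% lower) against MDA-MB-453. They pool the spread of both lines, and the median replicate SD was 0.331 in MCF, against 0.193 in BT20 and 0.159 in MDA-MB-453, so the errors are too small for MCF. Line and part of the series cannot be told apart.

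Genes induced by amino acid shortage and by stress of the endoplasmic reticulum were higher at 24 h. This programme is run by the transcription factor ATF4, which is translated when the initiation factor eIF2 is phosphorylated and which raises genes for amino acid import and synthesis. All 29 tested members of the list of 30 were higher in the fit to the 6 arrays, against 48.0% of all genes, and in 17 every 24 h array lay above every 0 min array (5.45% of all genes). The median difference was 0.44. This list too was chosen with earlier results of these data known, so its counts are descriptive. The axis-adjusted fit called 5 higher and none lower (17 higher and 0 lower at an unadjusted p under 0.05). Over all genes 0.723% were called higher and 18.3% had such a p in either direction. In that fit EDEM1, named after its value was seen, was the 1 member below 0, at -0.10.

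The called members were spread over import, synthesis and breakdown. SLC7A11, the cystine importer, read 10.58, 10.79 and 10.42 at 24 h, against 9.54, 9.40 and 9.37 at 0 min. No replicate came near the other group, and the axis-adjusted rise was 1.15 ± 0.13 (adjusted p = 0.0292; 0.204 without the covariate). ASNS, asparagine synthetase, read 11.75, 11.39 and 12.07 at 24 h, against 11.21, 10.23 and 10.53 at 0 min, and rose by 1.17 ± 0.13 axis-adjusted (adjusted p = 0.0246). As the mean of all its probe sets, of which 1 passed the level, it differed by 0.63 and was not called (adjusted p = 0.0565). CHAC1, which degrades glutathione, read 5.36, 5.26 and 6.80 at 24 h, against 4.65, 3.22 and 3.28 at 0 min, and rose by 2.25 ± 0.25 (adjusted p = 0.0255). The stress-induced chromatin protein gene NUPR1 read 4.77, 4.87 and 4.58 at 24 h, against 3.60, 3.74 and 3.83 at 0 min, and rose by 1.00 ± 0.11 (adjusted p = 0.0266). For CHAC1 and NUPR1 the 0 min mean lay below the level, so the sizes are inexact. PHGDH, the first enzyme of serine synthesis, read 8.16, 6.43 and 9.63 at 24 h, against 8.43, 5.25 and 7.37 at 0 min. Its groups overlapped, and its call (1.39 ± 0.22, adjusted p = 0.0480) rested on the covariate, as the difference without it was 1.06 ± 1.08.

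Further members of the list, named after their values were seen, separated the groups or stood out by level. ATF4 itself read 13.24, 13.12 and 13.15 at 24 h, against 12.40, 12.50 and 12.72 at 0 min. Its difference was 0.63 ± 0.16 in the fit to the 6 arrays (adjusted p = 0.447), and it was called in neither fit. DDIT3, which encodes CHOP, read 7.32, 7.22 and 8.21 at 24 h, against 6.95, 6.62 and 6.52 at 0 min. HERPUD1, a gene of endoplasmic reticulum protein degradation, read 10.72, 10.86 and 10.65 at 24 h, against 10.12, 9.95 and 10.06 at 0 min. Both separated the groups without a call. DDIT4, an inhibitor of mTORC1, read 13.20, 13.53 and 13.01 at 24 h, against 12.09, 12.74 and 12.62 at 0 min. The chaperone gene HSPA5 differed by 0.19 with overlap. Some genes outside the list were also called axis-adjusted. CPS1, the first enzyme of the urea cycle, read 7.98, 8.20 and 8.19 at 24 h, against 6.80, 6.35 and 6.61 at 0 min, and CBS, which makes cystathionine, rose by 1.28 ± 0.17 (adjusted p = 0.0348). INHBE, the mitochondrial enzyme gene PCK2 and the alanyl-tRNA synthetase gene AARS1 were chosen after their values were seen. INHBE rose by 2.42 ± 0.21 (adjusted p = 0.0147). PCK2 rose by 1.10 ± 0.12 (adjusted p = 0.0255) and AARS1 by 0.87 ± 0.14 (adjusted p = 0.0480), both with overlapping arrays. The 5 calls within the list were each lost without any 1 of the arrays other than 0 min replicate 1, and that of PHGDH without this array too.

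**Figure D4:**
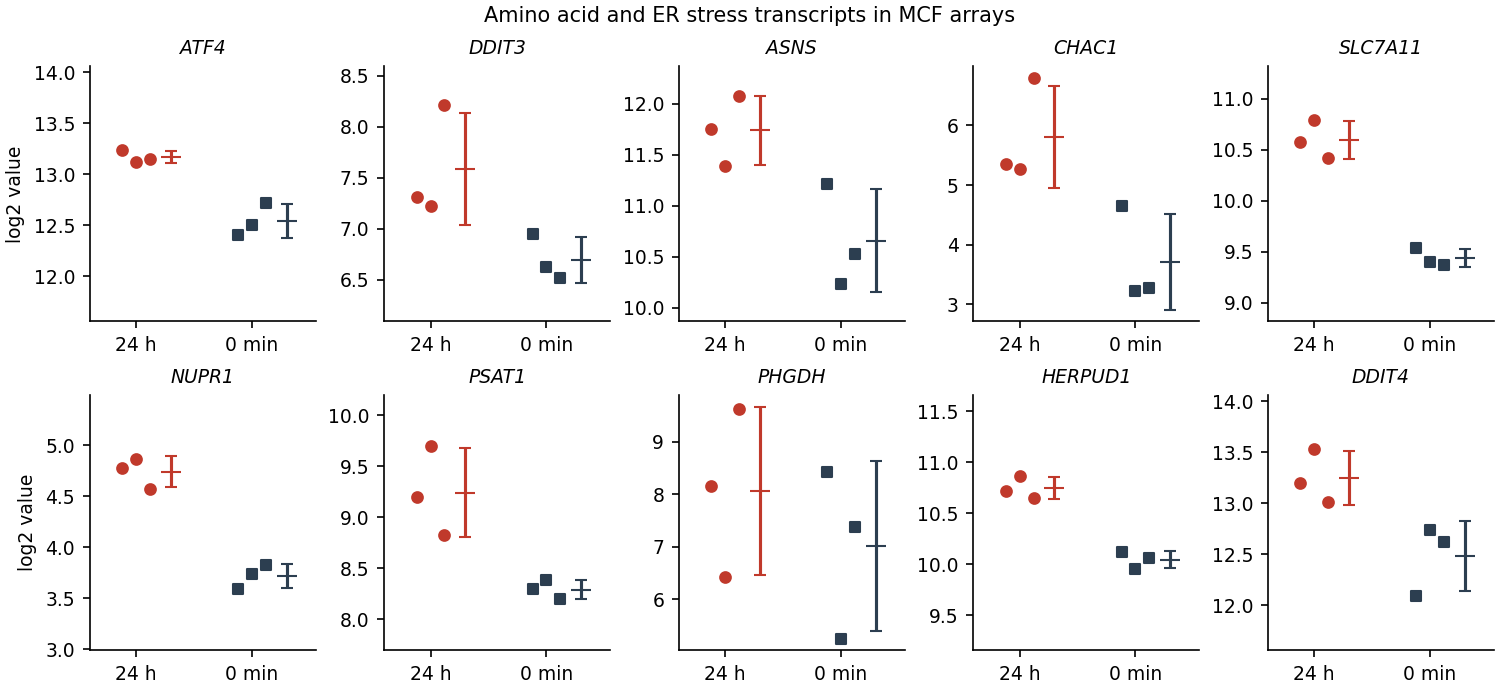
Log2 values (y axis) of 10 amino acid and ER stress transcripts, with the 3 arrays of 24 h as circles on the left and the 3 of 0 min as squares on the right of each panel, and the mean and SD beside them. All but PHGDH separate the groups, and PHGDH spreads over more than 3 log2 units within each group. ATF4, DDIT3, PSAT1, HERPUD1 and DDIT4 were picked after their values were seen. In the whole list 17 of 29 tested members separate the groups.

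ATF4 binds DNA with C/EBP partners at sites whose core reads TGATGNAA. The promoters of the list were therefore searched for these letters on both strands, in the 250 bases before each gene's start (RefSeq, GRCh38.p14). Of the 29 tested members 25 were in the promoter table; NUPR1, SLC7A11, PSPH and SHMT2 were not. The letters were found in 4 of the 25 promoters (16%), against 870 of 27305 promoters (3.19%) in the table. They are printed here on the strand of the gene, with the matched letters in capitals and 30 bases on each side; in CHAC1 and HERPUD1 the match is on the opposite strand, so the capitals show its complement. ASNS and CHAC1 were called in the axis-adjusted fit, and HERPUD1 and ATF3 were not. A match is a description of letters and not a measured site.
ASNS, chr7:97872439-97872506, minus strand: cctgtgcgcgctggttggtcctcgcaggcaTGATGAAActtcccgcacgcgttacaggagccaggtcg
CHAC1, chr15:40953232-40953299, plus strand: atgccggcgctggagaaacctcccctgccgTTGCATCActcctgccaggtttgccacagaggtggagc
HERPUD1, chr16:56931936-56932003, plus strand: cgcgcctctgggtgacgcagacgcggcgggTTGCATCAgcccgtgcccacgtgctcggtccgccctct
ATF3, chr1:212565186-212565253, plus strand: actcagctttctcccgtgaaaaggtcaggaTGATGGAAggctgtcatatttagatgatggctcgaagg

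Genes of the G1/S transition and DNA replication were lower by small amounts. Of 35 tested members 34 were lower, against 52.0% of all genes, and in 19 every 24 h array lay below every 0 min array (6.25% of all genes). The median difference was -0.46. These genes were also listed with earlier results of these data known, so their counts are descriptive. The axis-adjusted fit called 1 (27 lower and 0 higher at an unadjusted p under 0.05). Over all genes 1.08% were called lower and 18.3% had such a p in either direction. The called gene was MCM10, which acts at replication forks and read 9.06, 8.77 and 8.84 at 24 h, against 10.10, 9.79 and 9.77 at 0 min (-0.98 ± 0.14, adjusted p = 0.0418). CDC6, which loads the replicative helicase, read 9.03, 8.56 and 8.86 at 24 h, against 9.59, 9.63 and 9.75 at 0 min (adjusted p = 0.0676). CDC45, a part of the active helicase, read 7.45, 7.32 and 6.98 at 24 h, against 7.73, 8.62 and 8.03 at 0 min, and the origin recognition gene ORC1 differed by -0.92 ± 0.18 (adjusted p = 0.0717). The call of MCM10 was lost without any 1 of 24 h replicates 1, 2 and 3 or 0 min replicates 2 and 3.

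Mitotic genes held no call. Of 32 tested, 13 were lower and 19 higher, against 52.0% and 48.0% of all genes, with a median of 0.03. At an unadjusted p under 0.05, 6 were higher and 0 lower axis-adjusted, against 18.3% of all genes in either direction. CCNB2, which encodes cyclin B2, read 9.81, 9.84 and 9.71 at 24 h, against 9.16, 9.32 and 9.17 at 0 min (0.55 ± 0.10, adjusted p = 0.0668), and KIF20A, NUF2 and CDC25C differed by 0.62, 0.45 and 0.76. MYC read 10.09, 10.54 and 8.81 at 24 h, against 8.84, 10.93 and 9.45 at 0 min, a spread that followed the axis. Of 22 MYC and ribosome biogenesis genes 18 were lower (52.0% over all genes), with a median of -0.17 and no call (0 higher and 3 lower at an unadjusted p under 0.05, axis-adjusted). CDKN1A, which encodes the CDK inhibitor p21, read 11.35, 11.14 and 11.68 at 24 h, against 11.80, 11.37 and 11.66 at 0 min.

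Among estrogen receptor targets and luminal genes 1 was called. TFF1, induced by estrogen, read 13.46, 12.88 and 13.81 at 24 h, against 13.81, 12.94 and 13.73 at 0 min, with full overlap. PGR, the progesterone receptor, read 8.90, 9.53 and 8.56 at 24 h, against 7.90, 8.52 and 7.91 at 0 min. Every 24 h array lay above every 0 min array, and the axis-adjusted difference was 0.81 ± 0.16 without a call (adjusted p = 0.0718). GREB1 differed by 0.32 ± 0.17 and SIAH2 by 0.50 ± 0.12, neither called. Of 29 tested estrogen targets 21 were higher, against 48.0% of all genes. In 5 every 24 h array lay above every 0 min array (5.45% of all genes), and in 0 below. IL17RB, an interleukin receptor subunit, was the 1 called, against 1.80% of all genes: it read 5.39, 4.72 and 6.21 at 24 h, against 7.27, 5.66 and 6.24 at 0 min, and fell by 0.79 ± 0.12 axis-adjusted (adjusted p = 0.0480). Its arrays overlapped, and without the covariate the difference was -0.95 ± 0.54. Among 11 genes repressed by estrogen CYP1A1 was called, and BCAS1, KCTD6 and CCNG2 differed by 0.72, -0.46 and 0.45. Of the 20 luminal markers tested 18 were higher, and in 4 every 24 h array lay above every 0 min array. None was called (2 higher and 0 lower at an unadjusted p under 0.05, axis-adjusted, against 18.3% of all genes in either direction). SPDEF, MLPH and XBP1 differed by 0.51, 0.26 and 0.33. The call of IL17RB was lost when any 1 of the 6 arrays was left out.

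Among genes that respond to low PI3K signalling through FOXO factors, 18 of 24 were higher, against 48.0% of all genes. The axis-adjusted fit called 2 higher and 1 lower, against 0.723% and 1.08% of all genes. TSC22D3, which encodes the protein GILZ, read 10.38, 10.70 and 9.63 at 24 h, against 8.20, 9.74 and 8.89 at 0 min, with overlap of 1 array, and rose by 1.15 ± 0.13 (adjusted p = 0.0282). As the mean of all its probe sets, of which 1 passed the level, it differed by 0.51 and was not called (adjusted p = 0.119). BMF, a BH3-only gene whose product opposes BCL2, read 5.88, 6.29 and 5.03 at 24 h, against 4.30, 4.74 and 4.39 at 0 min, and rose by 1.16 ± 0.18 (adjusted p = 0.0476). TRIB2, a pseudokinase, fell by 0.80 ± 0.11 (adjusted p = 0.0356). KLHL24 was not called at 0.61 ± 0.15. BMF was also the 1 call among 27 cell death genes, against 1.80% of all genes called in either direction. BCL2L11, which encodes BIM, read 10.16, 10.44 and 10.05 at 24 h, against 10.27, 10.17 and 10.08 at 0 min. CASP8, the initiator caspase of death receptors, read 8.26, 8.51 and 7.36 at 24 h, against 7.65, 7.80 and 7.99 at 0 min. BID read 8.16, 7.41 and 9.41 at 24 h, against 10.08, 8.05 and 9.19 at 0 min (-0.57 ± 0.11 axis-adjusted, adjusted p = 0.0700), and CFLAR, TNFRSF10A and FAS differed by 0.06, -0.62 and -0.54. The calls of TSC22D3, BMF and TRIB2 were each lost without any 1 of 24 h replicates 1, 2 and 3 or 0 min replicates 2 and 3.

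Most immediate early genes were not lower. Of 22 tested, 16 were higher (48.0% over all genes) and 6 lower, with a median of 0.14. FOS read 5.93, 8.46 and 6.17 at 24 h, against 4.29, 4.93 and 4.44 at 0 min. The 24 h arrays all lay above the 0 min arrays, but their spread left it without a call (2.16 ± 0.52, adjusted p = 0.112). KLF2, a zinc finger factor, was the 1 call and read 6.77, 6.51 and 6.30 at 24 h, against 5.26, 5.56 and 5.46 at 0 min (1.07 ± 0.14, adjusted p = 0.0348). Over all genes 1.80% were called axis-adjusted. DUSP1 and EGR3 differed by 0.65 and -0.56. Of the 11 ErbB family genes tested, the ligand gene BTC (betacellulin) was called: it read 5.18, 5.45 and 4.57 at 24 h, against 5.99, 6.18 and 6.25 at 0 min, and fell by 1.13 ± 0.16 (adjusted p = 0.0418). TGFA differed by -0.63, the EGFR inhibitor ERRFI1 by -0.40 and the ubiquitin ligase CBLB by 0.42, none called. The calls of KLF2 and BTC were lost without any 1 of 24 h replicates 1, 2 and 3 or 0 min replicates 2 and 3.

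Most of the largest axis-adjusted falls lay outside the ERK list. SPRR1B, a cornified envelope protein of squamous epithelium, read 3.31, 2.79 and 4.33 at 24 h, against 7.27, 6.03 and 7.29 at 0 min. It fell by 3.24 ± 0.21 (adjusted p = 0.0108), with a 24 h mean below the level. Its family member SPRR3, named after its values were seen, read 3.03, 2.87 and 3.04 at 24 h, against 4.87, 5.34 and 5.43 at 0 min. S100A8, a calcium-binding protein of stressed epithelium and neutrophils, read 5.94, 5.79 and 7.35 at 24 h, against 9.11, 7.61 and 8.24 at 0 min, and fell by 1.79 ± 0.16 (adjusted p = 0.0159). DIO2, which activates thyroid hormone, read 6.83, 6.92 and 7.11 at 24 h, against 9.18, 8.71 and 8.98 at 0 min, and fell by 1.97 ± 0.12 (adjusted p = 0.00990). OLFML3, a secreted olfactomedin-like protein, read 5.96, 5.97 and 6.33 at 24 h, against 7.78, 7.88 and 8.01 at 0 min. The glutamate transporter SLC1A3 fell by 1.83 ± 0.15, CD109 by 1.80 ± 0.28, the phosphatase PTPRE by 1.77 ± 0.26 and LINC01085 by 1.87 ± 0.16. In the order of p without the covariate, TMEM45A, CRISP3, KCTD12 and ZNF365 also separated the groups with differences of -1.29, -1.39, -1.52 and -1.39, each called only axis-adjusted. Of these, SPRR1B and SLC1A3 were still called without 0 min replicate 3.

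The other genes named for the size of their rise had varied roles. DHRS3, which reduces retinal, read 7.35, 6.96 and 6.95 at 24 h, against 4.79, 4.85 and 5.61 at 0 min, and rose by 2.00 ± 0.26 (adjusted p = 0.0356). The selenium carrier SELENOP read 7.69, 8.25 and 7.70 at 24 h, against 6.43, 6.29 and 6.78 at 0 min. SHH, the hedgehog ligand, read 9.66, 9.57 and 9.63 at 24 h, against 8.37, 8.52 and 8.80 at 0 min. POLR3GL, an RNA polymerase III subunit, DZIP3 and DDX59-AS1 rose by 1.11, 0.94 and 1.27. STAT6, SIGLEC15 and IQCH-AS1 rose by 1.22, 1.32 and 1.33 axis-adjusted although their arrays overlapped. STAT6 read 6.72, 5.78 and 7.99 at 24 h, against 6.65, 4.75 and 6.06 at 0 min. TP53I3, a p53 target, rose by 1.17 ± 0.15, with overlapping arrays, and was the 1 call of 18 p53 targets, and EGLN3, an oxygen-sensing hydroxylase, fell by 1.25 ± 0.12 as the 1 call of 27 glycolysis and hypoxia genes. Over all genes 1.80% were called axis-adjusted.

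**Figure D5:**
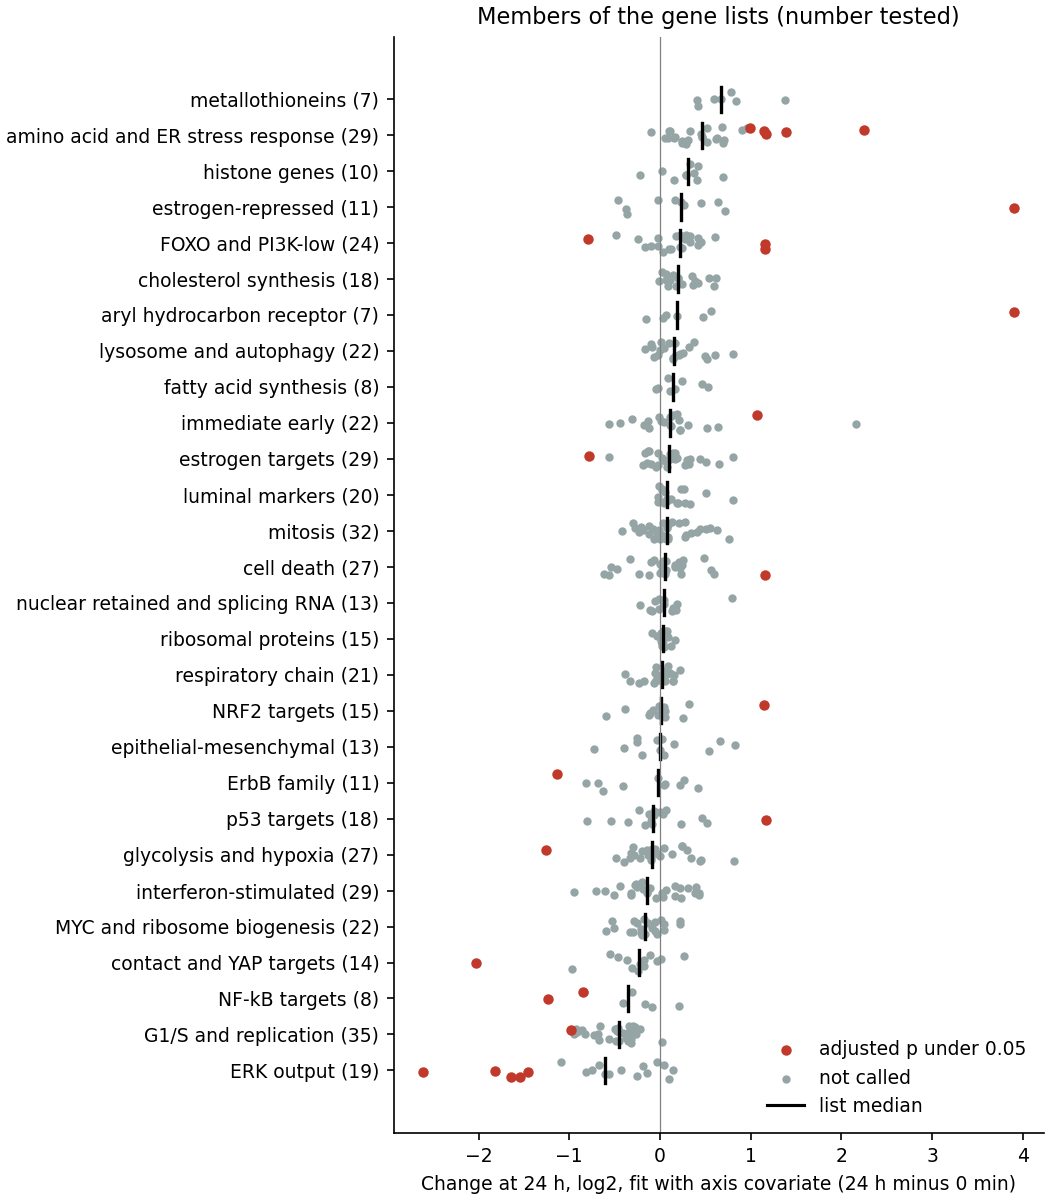
Each point is the axis-adjusted difference (24 h minus 0 min, log2, x axis) of 1 tested member of a gene list (rows, number tested in parentheses), red where called. Black ticks are list medians, which run from -0.61 for ERK output to 0.67 for metallothioneins.

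Several lists held no call. In the axis-adjusted fit none of 15 ribosomal protein genes or 21 respiratory chain genes was called or had an unadjusted p under 0.05. Over all genes 1.80% were called and 18.3% had such a p, with 5465 of 11060 higher and 5595 lower. Among 29 interferon-stimulated genes none was called (3 higher and 4 lower at an unadjusted p under 0.05), and 17 of 29 were lower. Cholesterol synthesis genes were higher in 17 of 18 with a median of 0.20 and no call (2 higher and 0 lower at an unadjusted p under 0.05). Lysosome and autophagy genes had a median of 0.16 and fatty acid synthesis genes one of 0.14, again with no call (3 and 1 higher, 0 lower, at an unadjusted p under 0.05). Of 15 NRF2 targets SLC7A11 was the 1 called.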

How the data were processed

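Expression was measured on 25 Affymetrix arrays with 54613 probe sets, and 6 arrays of the MCF line were used for the main comparison. The authors deposited log2 values per probe set, made with GCRMA 2.20.0 in R 2.11.1 per the submitters' processing notes. Read depth does not apply to arrays, and the number of arrays limits the precision. Probe sets with exactly 1 gene symbol in the platform annotation (41091; 1801 had several and 11721 none) were reduced to 1 per gene, that with the highest mean over the MCF arrays. Of 19775 genes, 11060 had a log2 value above 4 on at least 3 of the 6 arrays and were tested. Groups came from the sample labels.

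Differences are 24 h minus 0 min, from limma 3.58.1 in R 4.3.3 with Benjamini-Hochberg adjustment over all tested genes, and a gene was called at an adjusted p under 0.05. A second limma fit added the score on the first principal component of the gene-centred values. Limma fits of MCF with BT20 and with MDA-MB-453 tested the difference of their 24 h changes. The code was tested on simulated data.

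The comparison, the gene lists and the tests were chosen with earlier results of these data known. Named genes were the 10 largest called changes per direction and fit whose higher group averaged 6 or more (without overlap, and filled up in order of p, in the fit to the 6 arrays), up to 4 members of each list by p, a set of signalling, death and estrogen genes, and the 10 largest axis loadings at each end. Others are marked in the text as chosen after their values were seen. Promoter sequences are those of RefSeq (GRCh38.p14). Alternatives covered the filter, the probe set, normalization, array weights, a replicate block, other axis terms and leaving out each array. A planned check of the ratio of 3' to 5' control probe sets was not run, because the table used here has no such probe sets.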

Additional observations from a re-analysis of the deposited data

Results flagged for a closer look

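The 24 h change of several ERK targets and stress genes differed between lines in limma fits of MCF with 1 other line, tested as the difference itself (MCF minus the other line, Benjamini-Hochberg adjusted over all genes). The fits pool the spread of both lines, and MCF replicates varied more, so these p-values are too small for MCF. Line and part of the series cannot be told apart.

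Against BT20, DUSP6 differed by 4.37 (-1.67 in MCF and -6.03 in BT20, adjusted p = 1.50e-06). MYEOV differed by 2.02 (-1.61 in MCF and -3.63 in BT20, adjusted p = 0.00335) and LIF by 1.52 (-1.88 in MCF and -3.40 in BT20, adjusted p = 0.0489). ETV5 went the other way, with a larger fall in MCF (-2.61) than in BT20 (-1.62), a difference of -0.985 (adjusted p = 0.0129). Among stress genes NUPR1 differed by -3.09 (1.02 in MCF and 4.11 in BT20, adjusted p = 1.46e-05) and ASNS by -1.47 (1.08 in MCF and 2.55 in BT20, adjusted p = 0.0162). SLC7A11 differed by 0.997 (1.16 in MCF and 0.16 in BT20, adjusted p = 0.00596). Without BT20 0 min replicate 4, an array that stands apart, these 7 differences were still called. SPRED1 (1.13, adjusted p = 0.0287) and CYP1A1 (1.45, adjusted p = 0.0168) were then called too, against adjusted p-values of 0.0513 and 0.343 with that array. CYP1A1 rose in both lines, by 3.82 in MCF and 2.77 in BT20 with all arrays.

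Against MDA-MB-453, in which these ERK targets changed little, DUSP6 differed by -1.59 (-1.67 in MCF and -0.08 in MDA-MB-453, adjusted p = 0.0136). ETV5 differed by -2.43 (-0.18 in MDA-MB-453, adjusted p = 0.000186), LIF by -1.56 (-0.32, adjusted p = 0.0222) and MYEOV by -1.55 (-0.06, adjusted p = 0.0329). No difference in a called stress gene was called against MDA-MB-453.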

How the results depend on the processing

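The single call in the fit to the 6 arrays, ETV5, stayed 1 call without a filter, with a filter above 6 and with probe sets and filter taken over 25 arrays. It became 0 with the mean of probe sets, the trended and robust fit, the replicate block, every probe set tested, each array left out in turn (0 to 0), and, as settings chosen after seeing the data, without 24 h 3 and 0 min 1 or without 24 h 2 and 0 min 2. Repeated quantile normalization gave 4 calls, centring each array on its median 2, the fit to all 25 arrays, which pools the smaller spread of the other lines, 406, and array weights 6613, with an estimation that stopped before convergence. The axis-adjusted count of 199 was 95 after repeated quantile normalization, 464 with array weights, 0 with the second component added and 0 to 198 with each array left out. It lay within 1.5 times under no filter (227), a filter above 6 (143), the mean of probe sets (167), the 25-array choice (194), centring (205), the trended and robust fit (295) and an axis from residuals (241). The BT20 difference count of 1052 was 1827 without BT20 0 min replicate 4 and 760 to 1233 with each MCF array left out. The MDA-MB-453 count of 96 was 61 in the trended and robust fit, 11 with the replicate block and 46 to 117 with each MCF array left out. EGR1 in the 6-array fit turned to -0.62 with array weights, and CD109 turned to 0.0485 axis-adjusted with the second component added; apart from these, no called gene named changed sign. The cause was not tested. The labels do not say whether same-numbered arrays are paired. Their deviations from the group means correlated at -0.506, 0.807 and 0.0537 for replicates 1, 2 and 3. These 3 values cannot settle whether the arrays are paired. With 3 arrays a group, large differences could miss the threshold without the covariate, such as that of CYP1A1 at 3.82 (adjusted p = 0.0680).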

Other observations

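NT5E, the surface enzyme that makes adenosine from AMP, read 6.19, 5.71 and 5.77 at 24 h, against 7.77, 8.15 and 7.78 at 0 min, and fell by 2.03 ± 0.18 in the axis-adjusted limma fit (adjusted p = 0.0147). As the mean of its probe sets it fell by 1.22 (adjusted p = 0.0150). ADORA2B, an adenosine receptor, read 5.34, 5.40 and 5.48 at 24 h, against 6.59, 6.97 and 6.67 at 0 min, and fell by 1.35 ± 0.13 (adjusted p = 0.0205). NT5E was also the 1 call among 14 contact and YAP targets, of which 12 were lower, against 52.0% of all genes. Over all genes 1.08% were called lower axis-adjusted. The calls of NT5E and ADORA2B were lost without any 1 of 24 h replicates 1, 2 and 3 or 0 min replicates 2 and 3.

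Of 8 tested NF-kB targets 7 were lower, against 52.0% of all genes, and 2 were called lower axis-adjusted, against 1.08% of all genes. The chemokine gene CXCL8 read 4.03, 3.85 and 4.25 at 24 h, against 5.66, 4.82 and 5.57 at 0 min (-1.24 ± 0.16, adjusted p = 0.0342). TNFAIP2 read 6.45, 6.27 and 6.46 at 24 h, against 7.19, 7.23 and 7.32 at 0 min (-0.84 ± 0.11, adjusted p = 0.0360). As the mean of all its probe sets, of which 1 passed the level, it differed by -0.41 without a call (adjusted p = 0.0898). Neither was called without any 1 of 24 h replicates 1, 2 and 3 or 0 min replicates 2 and 3. All 7 metallothionein and zinc genes tested were higher, against 48.0% of all genes, with no call (5 higher and 0 lower at an unadjusted p under 0.05, axis-adjusted). Over all genes 18.3% had such a p in either direction. MT1F, a metal-binding protein gene, read 10.69, 10.17 and 10.69 at 24 h, against 8.64, 9.28 and 9.48 at 0 min, with an axis-adjusted difference of 1.38 ± 0.27 (adjusted p = 0.0729).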
